A study of Arabidopsis thaliana with 12 samples.

Results

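The question addressed here is whether Arabidopsis seedlings that lack a working AMP1 gene respond to the compound hyperphyllin as wild-type seedlings do. All 12 of the 12 arrays of the study were used, because the difference between the responses of both genotypes needs all 4 groups. It is called the interaction below, and it is the hyperphyllin minus DMSO difference in amp1-13 minus the hyperphyllin minus DMSO difference in wild type. A positive interaction means that the response was more positive in amp1-13. Of the 38408 probe sets on the array, the 16746 whose annotation gave exactly 1 gene were tested, and they stand for 16552 distinct genes.

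The groups were amp1-13 with 30 µM hyperphyllin (HP), amp1-13 with the solvent DMSO, wild type with 30 µM HP, and wild type with DMSO, with 3 arrays each. The amp1-13 line carries a mutant allele of AMP1 in the Col-0 background, the background of the wild type too, and no other amp1 allele was measured. Whole seedlings were harvested at 10 d after growth in liquid Murashige and Skoog medium of reduced strength with 1% sucrose at 26 °C and 16 h of light and 8 h of dark. All 4 groups held DMSO at 1% (v/v), the HP-treated ones as the solvent of HP. The labels call the 3 samples of a group biological replicates, and several seedlings shared a well. Whole seedlings hold roots, leaves and meristems together, so fewer cells of a type and less RNA per cell cannot be told apart in these values.

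AMP1 encodes a protein of the endoplasmic reticulum that resembles glutamate carboxypeptidases. Loss of AMP1 enlarges the shoot meristem and makes the seedling form leaves faster. Hyperphyllin is a synthetic compound known for producing a similar shoot phenotype in wild-type seedlings. AMP1, and its functional partners CYP78A5 and CYP78A7, were not analysed here, so the mutation was not checked on the arrays. AT5G19740, measured as a gene related to AMP1, averaged 5.11 ± 0.10 with HP and 5.33 ± 0.05 with DMSO in amp1-13, against 5.10 ± 0.07 with HP and 5.57 ± 0.33 with DMSO in wild type (log2 values, SD, n = 3 each). Its interaction did not pass the test in either fit. Without array 1 of DMSO-treated wild type, described below, the DMSO mean in wild type was 5.75. The HP minus DMSO difference in wild type was then -0.65 (adjusted p = 0.00146 in limma's test). With all 12 arrays it was -0.47 (adjusted p = 0.11).

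Array 1 of DMSO-treated wild type stood apart from its group, and the main result depends on it. It had a mean correlation over probe sets of 0.972 with the other arrays of its own group and of 0.987 with the arrays of the other 3 groups, while arrays 2 and 3 of its group correlated at 0.993. The medians of the 12 arrays lay between 4.09 and 4.15 on the log2 scale. The median SD between replicates was 0.131 with HP and 0.134 with DMSO in amp1-13, and 0.121 with HP and 0.188 with DMSO in wild type. For arrays 2 and 3 of DMSO-treated wild type alone it was 0.107. The labels give no batch, and the cause of the difference was not tested. Each result is therefore given with all 12 arrays and with the 11 arrays that remain without array 1 of DMSO-treated wild type.

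With all 12 arrays no gene had an interaction that passed limma's test at an adjusted p of 0.05 (Benjamini-Hochberg over the 16746 probe sets), which is 0% of those tested. The lowest adjusted p was 0.122, and 1386 probe sets (8.28%) had an unadjusted p under 0.05. Without array 1 the same test called 464 probe sets (2.77%), of which 230 had a positive and 234 a negative interaction, at adjusted p-values down to 0.000311. An unadjusted p under 0.05 was found for 2659 (15.9%) in that fit. All 464 kept the sign of their interaction in the 12-array fit, which shares 11 of its arrays, and 228 of them had an unadjusted p under 0.05 there. The 464 also depended on other single arrays. The count was 122 when array 3 of DMSO-treated wild type was left out as well, 257 for its array 2, 144 for array 2 and 255 for array 1 of HP-treated wild type, 220 for array 2 and 253 for array 3 of HP-treated amp1-13, and 294 for array 3 of DMSO-treated amp1-13. With each of the 11 arrays left out in turn, 78 of the 464 were called every time.

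**Figure D1:**
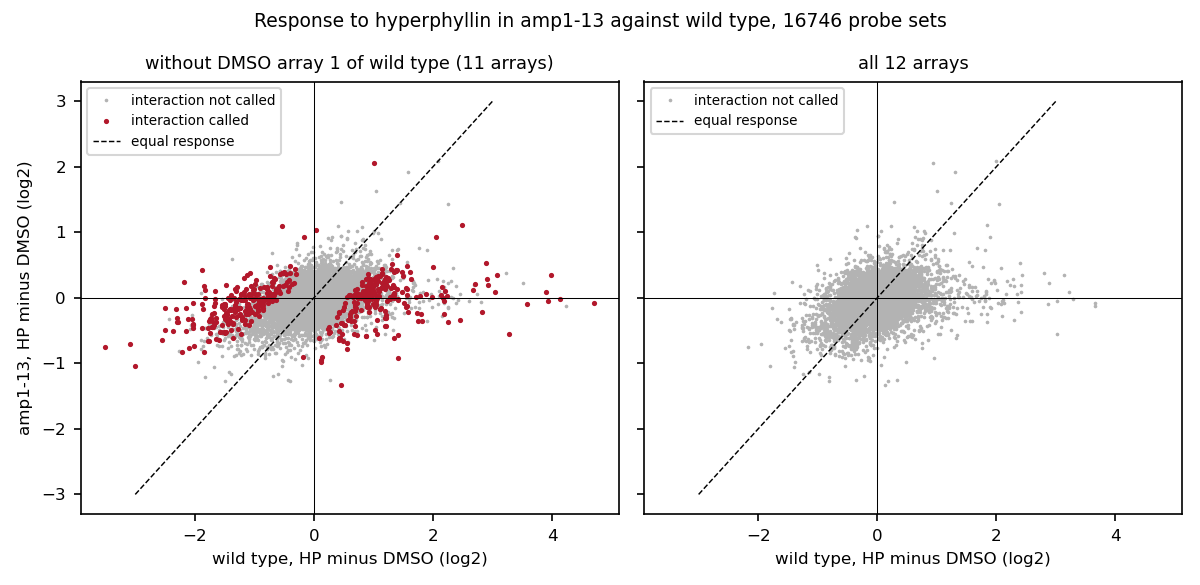
Response of each of the 16746 tested probe sets to hyperphyllin, as the mean log2 value with HP minus that with DMSO, in amp1-13 (vertical axis) against wild type (horizontal axis). The left panel uses 11 arrays, with the 464 called interactions in red. The right panel uses all 12 arrays, where 0 were called, and the dashed line marks equal responses. Of the 464 red points, 438 were also called in the wild-type response and 26 were not.

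The responses themselves were smaller in amp1-13 than in wild type for most of the genes that wild type changed. With 12 arrays, the treatment changed 3 genes in amp1-13 (0.0179%), of which 2 were higher (0.0119%) and 1 lower (0.00597%), and 304 in wild type (1.82%), of which 206 were higher (1.23%) and 98 lower (0.585%). With 11 arrays it changed 130 in amp1-13 (0.776%), of which 42 were higher (0.251%) and 88 lower (0.525%), and 2356 in wild type (14.1%), of which 1049 were higher (6.26%) and 1307 lower (7.8%). The amp1-13 differences were the same in both fits, because the array left out is a wild-type one. Only the estimate of the spread, which all groups share, changed for amp1-13, so its larger count is not a larger response. Among the 206 genes raised in wild type with 12 arrays, the median difference was 0.19 in amp1-13 and 0.90 in wild type on the log2 scale. Among the 98 lowered genes it was -0.25 in amp1-13 and -0.70 in wild type. Wild-type values chose these genes, so their wild-type medians are given as descriptions only. With a further array left out of the 11, the 130 amp1-13 calls became 45, 33 and 40 without arrays 1, 2 and 3 of DMSO-treated amp1-13, 61 and 28 without arrays 1 and 2 of HP-treated amp1-13, and 82 without array 2 of HP-treated wild type. The 2356 wild-type calls became 1507 and 1334 without arrays 2 and 3 of DMSO-treated wild type. The 12-array wild-type count fell to between 22 and 171 when any 1 of the 3 HP-treated or of arrays 2 and 3 of the DMSO-treated wild-type arrays, or array 3 of DMSO-treated or arrays 2 or 3 of HP-treated amp1-13, was left out of the 12.

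A direction shared with wild type was more common than a size shared with it. Of the 304 genes called in wild type with 12 arrays, 237 (78%) had the same sign in amp1-13, against 57.6% of all probe sets tested. The median ratio of the amp1-13 to the wild-type difference was 0.261. These genes were chosen by a called wild-type difference, which is also the denominator, so the choice itself tends to lower the ratio. With 11 arrays, 1908 of 2356 (81%) had the same sign in amp1-13, against 59.2% of all, and the median ratio was 0.243. Over all probe sets the amp1-13 and wild-type responses had a Pearson correlation of 0.308 with 12 arrays and of 0.372 with 11, as a description across genes that share the same arrays.

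The wild-type responses were then sorted by the ratio of the amp1-13 to the wild-type log2 difference. A ratio of 0.5 or more is called kept, one between -0.5 and 0.5 lost, and one of -0.5 or less reversed. These are names for ranges of a ratio and carry no test of their own. Because the wild-type difference chose the genes, the choice itself tends to add to the lost class. With 12 arrays, 236 of the 304 genes (77.6%) were lost, 66 (21.7%) kept and 2 (0.658%) reversed. With 11 arrays, 1925 of 2356 (81.7%) were lost, 398 (16.9%) kept and 33 (1.4%) reversed. Lost does not mean absent in every gene, as 12 of the 1925 were called in amp1-13. That share is below the 0.776% of all probe sets called in amp1-13, so it shows no remaining response of the class. In 475 of the 1925 the HP and DMSO arrays of amp1-13 did not overlap (16.8% of all probe sets). All 304 were also called with 11 arrays, and 285 of them stayed in their class. The ranges meet without a gap: the ratio was 0.5003 for AT2G39670 and 0.4998 for AT2G38090 at the upper limit, and -0.4997 for AT1G14642 and -0.5059 for AT1G58410 at the lower limit.

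The interaction test passed for only part of each class. With 11 arrays, it called 410 of the 1925 lost genes, 1 of the 398 kept and 27 of the 33 reversed. Of all probe sets it called 2.77%. Class and interaction come from the same differences, so few calls among kept and many among reversed genes follow from the definitions. In amp1-13 itself, 1 of the 33 reversed genes was called, against 0.776% of all probe sets. The interaction test also called 26 genes that the wild-type test did not call. Of those 26, 11 were called in amp1-13 and 15 in neither genotype. The lost genes were 867 raised and 1058 lowered ones, the kept genes 160 raised and 238 lowered ones, and the reversed genes 22 raised and 11 lowered ones. Most lost genes therefore have an amp1-13 difference below 0.5 of the wild-type one without a called difference between the genotypes.

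**Figure D2:**
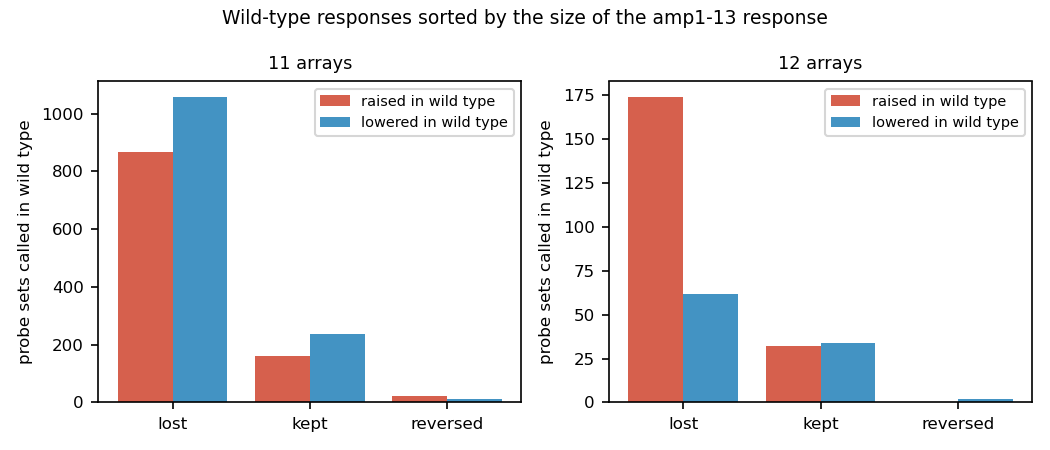
Number of probe sets called in the wild-type response (vertical axis, from 0) that were lost, kept or reversed in amp1-13, with 11 arrays on the left and 12 arrays on the right. Bars are split by direction in wild type, and the 2 panels have different scales. The lost class is the tallest in both, with 1925 and 236 probe sets.

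Among the 410 lost genes with a called interaction, amp1-13 mostly stood near HP-treated wild type in both media. For the 198 that HP raised in wild type, the median level relative to HP-treated wild type was 0.01 log2 units in HP-treated amp1-13 and -0.12 in DMSO-treated amp1-13. It was -1.09 in arrays 2 and 3 of DMSO-treated wild type. For the 212 that HP lowered, these medians were -0.01 and 0.11 in amp1-13, and 1.23 in wild-type arrays 2 and 3. The mean of the 6 amp1-13 arrays was nearer to HP-treated wild type in 182 of the 198 and in 200 of the 212, and nearer to DMSO-treated wild type in the other 16 and 12. Both the wild-type and the amp1-13 arrays chose these genes, through the ratio and the interaction, and they also enter these medians. A small amp1-13 difference and a large wild-type difference were therefore set by the choice. The share of all probe sets nearer to HP-treated wild type was not worked out, so these counts are descriptions only. Array 1 of DMSO-treated wild type, which did not enter the choice, had medians of -0.20 and -0.05, so it too was near the HP-treated arrays. Among the 236 lost genes of the 12-array fit, none of which had a called interaction, amp1-13 was nearer to HP-treated wild type in 164 and nearer to DMSO-treated wild type in 72.

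**Figure D3:**
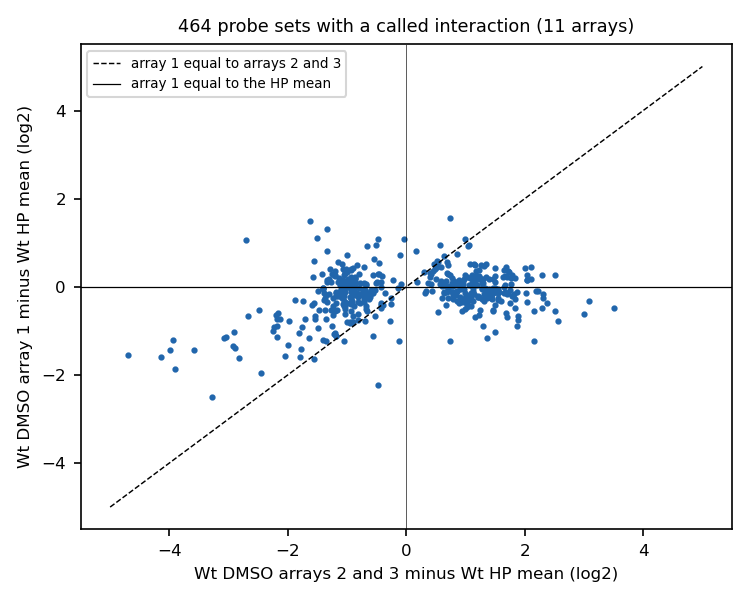
Level of array 1 of DMSO-treated wild type (vertical axis) and the mean level of arrays 2 and 3 of that group (horizontal axis), each minus the mean of HP-treated wild type in log2 units, for the 464 probe sets with a called interaction. The points spread along the solid line at 0, where array 1 equals the HP-treated mean, more than along the dashed line, where it equals arrays 2 and 3.

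Array 1 was nearer to the HP-treated mean than to the mean of arrays 2 and 3 in 394 of the 464 genes (84.9%), against 57.2% of all probe sets. It was nearer to arrays 2 and 3 in 70. In 221 of the 464 the interaction took the opposite sign when array 1 alone stood for DMSO-treated wild type. In 211 of the 464 (45.5%) all 3 DMSO arrays of wild type lay on the same side of all 3 HP arrays, against 19.6% of all probe sets, and of these 74 had a positive and 137 a negative interaction. Arrays 2 and 3 entered the choice of the 464 and array 1 did not.

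The dependence on array 1 was also described in genes chosen without the arrays set beside them. Array 2 with DMSO entered that choice, and it correlated at 0.993 with array 3. Agreement with array 3 was thus favoured by the choice and is no independent check. The wild-type response was measured once as array 1 with HP minus array 2 with DMSO, and genes at or past 1 log2 unit were taken. The 310 raised genes had a median difference of 0.06 in amp1-13, of 1.30 between arrays 2 and 3 with HP and array 3 with DMSO in wild type, and of 0.69 between the same HP arrays and array 1 with DMSO. The 415 lowered genes had medians of -0.33 in amp1-13, of -1.17 against array 3 and of 0.17 against array 1. At least 0.5 of the selecting difference was reached in amp1-13 by 17 of the 310 and 42 of the 415 genes. Against array 3 it was reached by 274 and 351, and against array 1 by 123 and 15. The small amp1-13 response of raised genes thus stands beside either DMSO array, but for lowered genes array 1 gave no such wild-type response.

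A set of 14 genes was called for the interaction with the same sign both in the 11-array fit and in a fit where array 1 alone represented DMSO-treated wild type. They are 3.02% of the 464 calls and 5.71% of the 245 calls of that second fit, 6 with a positive and 8 with a negative interaction. Both fits share the other 9 arrays, and in the second the lone DMSO array is assumed to vary like the arrays of the other groups. In a further 9 genes both fits made a call with opposite signs. The 14 are described for their array values and are not given as better supported than other calls. The 14 include 4 genes with a symbol: IDL4, CLV3, ATC and UGT87A2.

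Below, values are log2 expression values of single arrays in replicate order, an interaction is a difference of log2 differences with its standard error, and the adjusted p is limma's from the 11-array fit (1 array less in DMSO-treated wild type, n = 3 in the other groups) unless the 12-array fit is named. No interaction passed the 12-array test, and an interaction called below is one called in the 11-array fit, whatever other fits gave. Of the called genes named in the text, IDL4, AT4G01130, AT1G34400, BIK1, GH3.1, SWEET14, UGT71C1, ATPMEPCRD, AT1G73120, AT1G63600, PRA1.G1, STZ, GSTU20, CRR21, PSB27, AT5G18600, SWEET1 and NGA3 are among the 78 that stayed called with each further array left out, and the others lost their call without at least 1 of them. HP responses are called raised or lowered where the adjusted p of that genotype's own test was under 0.05.

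IDL4, a member of the family of small secreted peptides related to the abscission signal IDA, was lowered by HP in wild type and not in amp1-13. Its values were 4.62, 5.02 and 4.85 with HP and 4.60, 4.56 and 4.69 with DMSO in amp1-13, against 3.76, 3.84 and 4.01 with HP and 4.96, 4.79 and 4.92 with DMSO in wild type. The 3 HP-treated wild-type arrays were lower than all 9 others, and the other 3 groups lay close together. The interaction was 1.2 ± 0.17 with an adjusted p of 0.00782 with 11 arrays and 1.24 ± 0.16 with an adjusted p of 0.122 with 12. The amp1-13 difference was 0.22, and the wild-type difference was -0.98 with 11 arrays (adjusted p = 0.000429) and -1.02 with 12 (adjusted p = 0.00294). IDL3, the other measured member of the 6 genes written in the IDA-like list, was not called.

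CLV3 (AT2G27250, chromosome 2), the peptide that limits the stem cells of the shoot meristem, was raised by HP in amp1-13 in the 11-array fit, and no wild-type change was called. Its values were 3.74, 3.18 and 3.32 with HP and 2.20, 2.55 and 2.37 with DMSO in amp1-13, against 1.71, 1.90 and 2.15 with HP and 3.02, 1.98 and 1.80 with DMSO in wild type. All 3 HP-treated amp1-13 arrays lay above all others, and array 1 of DMSO-treated wild type was higher than arrays 2 and 3. The amp1-13 difference was 1.04 (adjusted p = 0.0168 with 11 arrays and 0.250 with 12), the wild-type difference 0.03, and the interaction 1.01 ± 0.24 (adjusted p = 0.0479), or 1.38 ± 0.38 with 12 arrays (adjusted p = 0.361). CLV3 was below the median of every array. LAS, the other measured gene of the 14 written in the shoot meristem list and a regulator of axillary meristems, was not called for the interaction.

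ATC (AT2G27550, chromosome 2), a relative of the flowering repressor TFL1, was highest in HP-treated wild type. Its values were 6.12, 6.09 and 6.30 with HP and 7.10, 6.53 and 6.52 with DMSO in amp1-13, against 7.84, 8.03 and 8.09 with HP and 5.76, 7.33 and 7.70 with DMSO in wild type. The 3 HP-treated wild-type arrays lay above the 9 others, but array 1 of DMSO-treated wild type was below its arrays 2 and 3. The interaction was -1.02 ± 0.24 (adjusted p = 0.0452), and neither genotype's own response was called in either fit. UGT87A2 (AT2G30140, chromosome 2), a glycosyltransferase known for an effect on flowering time, had an interaction of -0.70 ± 0.15 (adjusted p = 0.0287). It measured 7.81, 7.86 and 7.75 with HP and 8.25, 8.27 and 8.23 with DMSO in amp1-13, against 8.46, 8.21 and 8.13 with HP and 7.88, 7.99 and 8.03 with DMSO in wild type. The HP arrays of amp1-13 were below its DMSO arrays, and the HP arrays of wild type were above its DMSO arrays.

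Among the locus codes of the 14, AT4G01130 (chromosome 4) had a wild-type response called in both fits. It measured 5.78, 5.85 and 5.91 with HP and 5.30, 5.35 and 5.43 with DMSO in amp1-13, against 6.48, 6.67 and 6.38 with HP and 4.86, 5.11 and 4.79 with DMSO in wild type. The groups did not overlap: both genotypes were higher with HP, and wild type by more. The amp1-13 difference was 0.49 (adjusted p = 0.0724), the wild-type difference 1.56 (adjusted p = 2.78e-05), and the interaction -1.08 ± 0.16 (adjusted p = 0.01), with -1.1 ± 0.16 and an adjusted p of 0.122 in the 12-array fit. AT4G10150 and AT1G34400 had positive interactions of 1.24 ± 0.20 and 0.93 ± 0.14 (adjusted p = 0.012 and 0.0089), and in both genes all 3 DMSO-treated wild-type arrays were above the HP-treated ones and the level was below the median of every array. AT1G69520 had an interaction of -0.99 ± 0.18 (adjusted p = 0.0163), with HP values in wild type of 5.82, 6.17 and 6.11, against DMSO values of 5.25, 5.26 and 5.41. The remaining 6 of the 14 were AT1G03020, AT1G51805, AT3G46880, AT3G57600, AT3G27835 and AT4G18250, with interactions between -1.25 and 1.09. Of these, AT1G03020, AT1G51805, AT3G57600 and AT4G18250 had negative interactions.

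**Figure D4:**
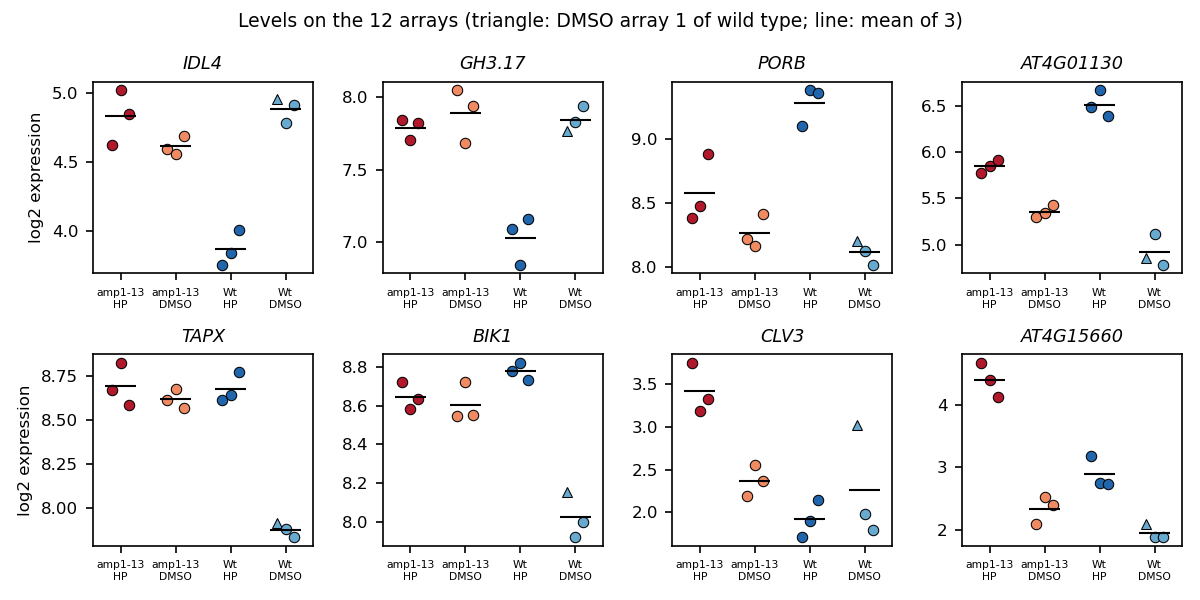
Log2 expression (vertical axis) of 8 genes on each of the 12 arrays, in the order HP-treated amp1-13, DMSO-treated amp1-13, HP-treated wild type and DMSO-treated wild type. Points are arrays, the triangle is array 1 of DMSO-treated wild type and lines are means of 3. In all panels but CLV3 the triangle lies with arrays 2 and 3, and IDL4, GH3.17, PORB and AT4G01130 show HP-treated wild type apart from the other groups.

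In TAPX (AT1G77490, chromosome 1), the thylakoid ascorbate peroxidase that removes hydrogen peroxide in the chloroplast, amp1-13 sat at the HP-treated wild-type level in both media. It measured 8.67, 8.83 and 8.59 with HP and 8.61, 8.68 and 8.57 with DMSO in amp1-13, against 8.61, 8.64 and 8.77 with HP and 7.92, 7.88 and 7.83 with DMSO in wild type. Only the 3 DMSO-treated wild-type arrays were low, array 1 included. The interaction was -0.75 ± 0.14 (adjusted p = 0.0188) and -0.72 ± 0.13 with 12 arrays (adjusted p = 0.27). BIK1 (AT2G39660, chromosome 2), a receptor-associated kinase of immune signalling, followed the same pattern, with 8.78, 8.82 and 8.73 with HP and 8.15, 7.92 and 8.00 with DMSO in wild type, and an interaction of -0.77 ± 0.13 (adjusted p = 0.0132). TAPX and BIK1 were chosen after their values were seen.

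GH3.17 (AT1G28130, chromosome 1), an enzyme that joins auxin to amino acids, behaved like IDL4. It measured 7.84, 7.70 and 7.82 with HP and 8.05, 7.68 and 7.94 with DMSO in amp1-13, against 7.09, 6.84 and 7.16 with HP and 7.76, 7.83 and 7.94 with DMSO in wild type. The HP arrays of wild type were below all 9 others. The interaction was 0.75 ± 0.18 (adjusted p = 0.0453), the amp1-13 difference -0.10, and the wild-type difference -0.85 with 11 and -0.81 with 12 arrays (adjusted p = 0.00123 and 0.0124). PORB (AT4G27440, chromosome 4), which makes chlorophyllide in the light, was the mirror image. It measured 8.38, 8.48 and 8.88 with HP and 8.22, 8.17 and 8.41 with DMSO in amp1-13, against 9.10, 9.38 and 9.36 with HP and 8.20, 8.12 and 8.02 with DMSO in wild type. The HP arrays of wild type lay above all 9 others. The interaction was -0.90 ± 0.21 (adjusted p = 0.0405).

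Auxin genes were the group with the most called positive interactions among the lists. Of 27 written auxin-response genes 9 were measured; 3 (LBD29, GH3.1 and GH3.17) had a called positive interaction with 11 arrays and 0 a negative one, against 1.37% and 1.4% of all probe sets. With 11 arrays 0 were raised or lowered in amp1-13 (0.776% of all probe sets). In wild type 0 were raised (6.26%) and 6 lowered (7.8%), or 1 lowered with 12 arrays (0.585%). The median interaction of the 9 was 1.00 with 11 arrays and 0.72 with 12, against 0.04 over all probe sets in both fits. The lists were chosen with earlier results of these data known, so their medians are descriptions.

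GH3.1 (AT2G14960, chromosome 2), another enzyme of auxin conjugation, was high in 2 arrays only. It measured 4.94, 5.33 and 5.27 with HP and 5.22, 4.97 and 4.87 with DMSO in amp1-13, against 6.03, 6.05 and 6.01 with HP and 5.13, 7.33 and 7.31 with DMSO in wild type. Arrays 2 and 3 of DMSO-treated wild type were above all others, while array 1 was among the amp1-13 arrays and below HP-treated wild type. The interaction was 1.45 ± 0.18 with 11 arrays (adjusted p = 0.00363) and -0.74 with array 1 alone for the DMSO-treated wild type. LBD29 (AT3G58190, chromosome 3), a transcription factor of auxin-induced lateral root formation, and YUC2 (AT4G13260, chromosome 4), a flavin monooxygenase of auxin synthesis, showed the same split. LBD29 measured 4.26, 4.48 and 5.27 with HP and 3.92, 6.53 and 6.58 with DMSO in wild type, and YUC2 measured 5.46, 5.37 and 5.48 and 5.39, 6.83 and 6.82. Their interactions were 2.30 ± 0.43 and 1.43 ± 0.27 (adjusted p = 0.0178 and 0.0184), and -0.33 and -0.01 with array 1 alone.

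EXPA7 (AT1G12560, chromosome 1), an expansin of root hairs, measured 4.78, 5.55 and 5.43 with HP and 5.58, 5.44 and 5.60 with DMSO in amp1-13, against 5.06, 4.93 and 5.46 with HP and 5.13, 6.79 and 6.52 with DMSO in wild type. Only arrays 2 and 3 of DMSO-treated wild type were high, and the interaction was 1.22 ± 0.29 (adjusted p = 0.0457). Both measured genes of the 12 in the root-hair list, EXPA7 and EXPA18, were lowered in wild type with 11 arrays (7.8% of all probe sets) and 0 with 12 (0.585%). The median of the root-hair list was 1.19 with 11 arrays and 0.64 with 12. SWEET14, a sugar transporter with a level below the median of every array, UGT71C1, a glucosyltransferase, and ATPMEPCRD, named for a pectin methylesterase, had interactions of 1.58 ± 0.25, 1.35 ± 0.18 and 1.57 ± 0.22, each with array 1 of DMSO-treated wild type outside the range of arrays 2 and 3. All 3 were called (adjusted p = 0.0107, 0.00483 and 0.00717). Of 9 written root genes only PYK10, a root beta-glucosidase, was measured, and it was not called (interaction 0.19 with 11 arrays). The part of root tissue in these results was not tested.

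The genes with the highest positive interactions carried locus codes only. AT5G36130 had an interaction of 2.75 ± 0.45 (adjusted p = 0.012), but -1.25 with array 1 alone. AT1G73120 had 2.43 ± 0.18 with an adjusted p of 0.000311, the lowest of the 464. It measured 2.85, 3.12 and 2.97 with HP and 2.81, 2.86 and 2.53 with DMSO in amp1-13, against 3.01, 3.03 and 3.04 with HP and 2.93, 5.05 and 5.38 with DMSO in wild type. Arrays 2 and 3 of DMSO-treated wild type were above all others, and array 1 was with the other groups.

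STZ (AT1G27730, chromosome 1), a zinc-finger repressor induced by many stresses, had the most negative called interaction of the genes with a symbol. It measured 10.21, 8.97 and 8.97 with HP and 8.56, 10.38 and 9.27 with DMSO in amp1-13, against 10.00, 10.21 and 9.88 with HP and 8.43, 5.81 and 5.96 with DMSO in wild type. Arrays 2 and 3 of DMSO-treated wild type were lowest, and array 1 of HP-treated and array 2 of DMSO-treated amp1-13 were high within their groups. STZ stayed called with each of the other arrays left out, these 2 included. The interaction was -4.16 ± 0.61 with 11 arrays (adjusted p = 0.0089) and -3.31 ± 0.90 with 12 (adjusted p = 0.338), and -1.62 with array 1 alone. The wild-type response was called in both fits, 4.14 and 3.29 (adjusted p = 0.000156 and 0.0285). Of 25 written early stress genes 5 were measured: STZ, PUB22, PUB23, PUB24 and AR781. STZ alone had a called interaction (1.4% of all probe sets were called negative). In amp1-13 0 changed (0.776% of all probe sets with 11 arrays and 0.0179% with 12). In wild type 4 were raised in both fits (6.26% of all probe sets with 11 arrays and 1.23% with 12). The median interaction was -1.83 with 11 arrays and -1.68 with 12.

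CML38 (AT1G76650, chromosome 1), a calmodulin-like calcium sensor, PUP18, of the purine permease family, and RING1, a ubiquitin ligase, showed the same array pattern as STZ. Array 1 of HP-treated and array 2 of DMSO-treated amp1-13 were again the highest of their groups. CML38 measured 6.21, 5.28 and 5.54 with HP and 5.48, 6.46 and 5.76 with DMSO in amp1-13, against 6.26, 6.10 and 6.20 with HP and 5.86, 4.23 and 4.68 with DMSO in wild type. The interactions were -1.96 ± 0.39, -1.70 ± 0.33 and -1.49 ± 0.27 (adjusted p = 0.023, 0.0203 and 0.0177). AT4G29780, which had the most negative interaction of all locus codes, measured 10.27, 8.52 and 8.79 with HP and 8.20, 10.51 and 9.09 with DMSO in amp1-13, against 10.07, 10.07 and 9.74 with HP and 8.42, 5.62 and 4.89 with DMSO in wild type. Its interaction was -4.78 ± 0.80 (adjusted p = 0.012). ORA47, an ethylene-response-factor type regulator of the jasmonate pathway, had an interaction of -2.68 ± 0.80 that did not pass the test (adjusted p = 0.111), and its HP-treated amp1-13 arrays measured 5.85, 4.50 and 4.12.

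**Figure D5:**
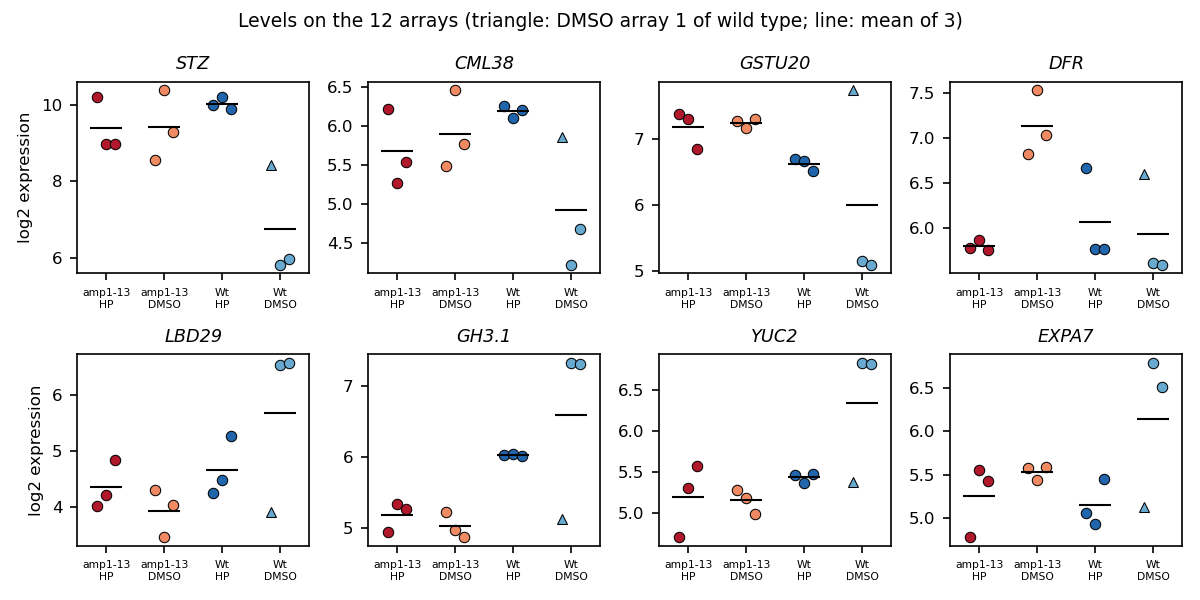
Log2 expression (vertical axis) of 8 genes on each of the 12 arrays, in the order HP-treated amp1-13, DMSO-treated amp1-13, HP-treated wild type and DMSO-treated wild type. Points are arrays, the triangle is array 1 of DMSO-treated wild type and lines are means of 3. In STZ and CML38 the triangle sits between arrays 2 and 3 and the HP-treated arrays, and in GSTU20, LBD29, GH3.1, YUC2 and EXPA7 it lies apart from arrays 2 and 3.

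GSTU20 (AT1G78370, chromosome 1), a glutathione transferase, had an interaction of -1.58 ± 0.20 (adjusted p = 0.00363) that turned to 1.04 with array 1 alone. It measured 7.37, 7.31 and 6.84 with HP and 7.27, 7.18 and 7.31 with DMSO in amp1-13, against 6.70, 6.66 and 6.52 with HP and 7.74, 5.15 and 5.10 with DMSO in wild type. Array 1 of DMSO-treated wild type was the highest of all 12 and arrays 2 and 3 the lowest. SPCH (AT5G53210, chromosome 5), which starts the stomatal lineage, was the only called gene of 4 measured in a list of 14. Of all probe sets 1.4% were called negative. SPCH had an interaction of -1.29 ± 0.31 (adjusted p = 0.0475). It measured 5.69, 6.10 and 6.32 with HP and 6.42, 5.80 and 6.41 with DMSO in amp1-13, against 7.02, 7.40 and 6.89 with HP and 6.95, 6.09 and 5.88 with DMSO in wild type. Array 1 of DMSO-treated wild type was inside the range of the HP-treated wild-type arrays.

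Genes of chloroplast function made up part of the 43 genes with a symbol and a called negative interaction. A set of 13 picked by known role after their values were seen is PSB27, PAM68, NdhN, CRR21, CCB3, TAPX, SBPASE, FTSZ2-2, LIL3:1, HEME1, HEME2, CHLM and PORB. They act in photosystem assembly (PSB27, PAM68), the chloroplast NDH complex (NdhN, CRR21), the cytochrome b6f complex (CCB3), carbon fixation (SBPASE), chloroplast division (FTSZ2-2) and chlorophyll synthesis (LIL3:1, HEME1, HEME2, CHLM, PORB). Having been picked, they get no test as a set. Their differences ran from -0.14 to 0.37 in amp1-13 and from 0.55 to 1.35 in wild type. In amp1-13 0 of the 13 were called. Only 0.776% of all probe sets were called there, so this count says nothing particular about these genes. The interactions ran from -1.19 to -0.54.

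All 3 DMSO-treated wild-type arrays were below the 3 HP-treated ones in 8 of the 13, against 137 of the 234 negative calls from which they were picked. Array 1 was nearer to the HP-treated mean in 11, against 84.9% of the 464 calls. The wild-type response was called with 12 arrays in 3, against 1.82% of all probe sets. With array 1 alone the interaction turned positive in CHLM (0.35), HEME1 (0.43), HEME2 (0.49), PAM68 (0.24) and LIL3:1 (0.24). It stayed negative in all the others of the 13. PSB27 measured 7.17, 7.34 and 7.26 with HP and 7.12, 7.07 and 7.27 with DMSO in amp1-13, against 7.11, 7.07 and 7.18 with HP and 6.91, 6.10 and 5.97 with DMSO in wild type. Arrays 2 and 3 of DMSO-treated wild type were low, and array 1 was nearer to the other groups. The interaction was -0.99 ± 0.14 (adjusted p = 0.00717). Of the 26 genes written in a photosynthesis list 5 were measured, and 0 were called for the interaction (2.77% of all probe sets). In wild type 3 were raised with 11 arrays (6.26% of all probe sets) and 1 with 12 (1.23%).

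The amp1-13 response itself was called in few genes, and with 12 arrays these were AT4G15660, AT4G15700 and AT2G41090. DFR (AT5G42800, chromosome 5), the dihydroflavonol reductase of anthocyanin synthesis, fell with HP in amp1-13, with a difference of -1.33 (adjusted p = 0.0258 with 11 arrays and 0.183 with 12), and had an interaction of -1.79 ± 0.34 (adjusted p = 0.0203). It measured 5.78, 5.87 and 5.76 with HP and 6.83, 7.53 and 7.04 with DMSO in amp1-13, against 6.67, 5.77 and 5.77 with HP and 6.60, 5.62 and 5.60 with DMSO in wild type. DMSO-treated amp1-13 stood above its HP arrays, and array 1 of both wild-type groups was above the other 2 arrays. Of 18 written flavonoid genes 5 were measured, and only DFR had a called interaction (1.4% of all probe sets were called negative). The median interaction of the 5 was -0.45 with 11 arrays and -0.20 with 12. UGT78D1, a flavonol rhamnosyltransferase, had an interaction of -0.58 ± 0.15 (adjusted p = 0.0609).

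AT2G41090 (chromosome 2) fell with HP in amp1-13 and showed no called change in wild type, in which all 3 DMSO arrays lay together. It measured 8.04, 7.90 and 7.97 with HP and 8.92, 9.0 and 8.70 with DMSO in amp1-13, against 8.68, 8.71 and 8.77 with HP and 8.83, 8.91 and 8.91 with DMSO in wild type. The HP-treated amp1-13 arrays lay below all 9 others. The amp1-13 difference was -0.91 (adjusted p = 0.00466) and the interaction -0.72 ± 0.15 (adjusted p = 0.0246).

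Glutaredoxins of the CC type, a plant-specific class of small redox proteins, were the list with most calls in amp1-13. Of 20 written 18 were measured. With 11 arrays, 6 were raised and 1 lowered in amp1-13 (0.251% and 0.525% of all probe sets), and 4 were raised and 2 lowered in wild type (6.26% and 7.8%). The 6 were AT5G18600 and a run of neighbouring loci on chromosome 4: AT4G15660, AT4G15670, AT4G15680, AT4G15690 and AT4G15700. The calls thus come mostly from that run and not from the class. Over the 18 the median amp1-13 difference was 0.07, and 10 lay below the median of every array (47.2% of all probe sets). With 12 arrays, 2 were raised in amp1-13 (0.0119%), AT4G15660 and AT4G15700, and 4 were raised and 0 lowered in wild type (1.23% and 0.585%). AT4G15700 rose in both genotypes: its values were 5.60, 5.09 and 5.15 with HP and 3.28, 2.89 and 3.42 with DMSO in amp1-13, against 3.54, 3.74 and 3.74 with HP and 1.86, 1.52 and 1.65 with DMSO in wild type. HP arrays lay above DMSO arrays in both genotypes with no overlap. The differences were 2.08 in amp1-13 and 2.09 in wild type (adjusted p = 0.000374 and 4.53e-05), and the interaction was -0.01 ± 0.24.

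AT4G15660, of the same list, rose more in amp1-13. It measured 4.68, 4.41 and 4.12 with HP and 2.09, 2.53 and 2.40 with DMSO in amp1-13, against 3.2, 2.75 and 2.73 with HP and 2.09, 1.88 and 1.88 with DMSO in wild type. The amp1-13 difference was 2.06 and the wild-type difference 1.00 (adjusted p = 0.000374 and 0.00362), and the interaction 1.06 ± 0.25 (adjusted p = 0.0452). It was the 1 kept gene with a called interaction. AT5G18600 rose in both genotypes but less in amp1-13 in the 11-array fit, with 1.1 in amp1-13 (not called with 12 arrays, adjusted p = 0.542) and 2.49 in wild type, and an interaction of -1.39 ± 0.18 (adjusted p = 0.00454), which took the opposite sign, 0.58, with array 1 alone. AT1G03020 had a negative interaction of -1.25 ± 0.24 (adjusted p = 0.0203), with HP values above DMSO values in wild type and below them in amp1-13.

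Kept responses with a symbol include PDF1.4, a plant defensin. It measured 4.58, 4.39 and 3.92 with HP and 3.22, 2.76 and 2.62 with DMSO in amp1-13, against 4.95, 4.98 and 4.74 with HP and 3.24, 2.63 and 2.65 with DMSO in wild type. HP arrays were above DMSO arrays in both genotypes without overlap, by 1.43 in amp1-13 and 2.25 in wild type (adjusted p = 0.00765 and 5.73e-05 with 11 arrays, 0.0546 and 0.00178 with 12), and the interaction was -0.81 ± 0.27 (adjusted p = 0.153). BGLU47, UGT72E2 and EXLA1, a beta-glucosidase, a monolignol glucosyltransferase and an expansin-like protein, had interactions of 0.67 ± 0.30, 0.23 ± 0.23 and -0.66 ± 0.38. None of these 3 passed the interaction test (adjusted p = 0.298, 0.698 and 0.441). In amp1-13 the response was called for UGT72E2 (adjusted p = 0.00765) but not for BGLU47 or EXLA1 (0.0723 and 0.245). With 12 arrays the wild-type response was called for BGLU47 (adjusted p = 0.0124) but not for UGT72E2 or EXLA1 (0.339 and 0.175).

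Reversed responses were rare. SWEET1, a glucose transporter of the cell membrane, measured 4.93, 4.74 and 5.13 with HP and 5.52, 5.37 and 5.64 with DMSO in amp1-13, against 5.28, 5.38 and 5.26 with HP and 5.52, 4.63 and 4.24 with DMSO in wild type. HP arrays were below DMSO arrays in amp1-13, and in wild type above arrays 2 and 3 and below array 1. The differences were -0.58 in amp1-13 and 0.87 in wild type, the wild-type one called at an adjusted p of 0.00197 and the amp1-13 one not (adjusted p = 0.0723), with an interaction of -1.45 ± 0.19 (adjusted p = 0.00566). NGA3, a B3-domain transcription factor of leaf and flower development, had an interaction of -1.11 ± 0.17 (adjusted p = 0.00975). CLE44, a peptide of vascular stem-cell maintenance, had 1.21 ± 0.27 (adjusted p = 0.0376), which turned to -0.77 with array 1 alone. The amp1-13 responses of NGA3 and CLE44 were not called either (adjusted p = 0.118 and 0.313). With 12 arrays the wild-type response was not called in SWEET1, NGA3 or CLE44 (adjusted p = 0.308, 0.155 and 0.942). AT1G34400 was reversed in both fits, with its wild-type response called in both and its amp1-13 response in neither. Over the 33 reversed genes the median difference was -0.36 in amp1-13 and 0.51 in wild type, both signed to the wild-type direction.

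The other lists gave few calls. Cytokinin response and metabolism had 4 measured genes and 0 called interactions, the unfolded protein response 4 and 0, expansins and xyloglucan enzymes 8 and 0 and leaf polarity and phase 5 and 0. Only 2.77% of all probe sets were called, so 0 calls among so few genes tell nothing about these lists. Both measured genes of chlorophyll synthesis, PORB and CHLM, had a called negative interaction (1.4% of all probe sets). The interaction of CHLM was 0.35 with array 1 alone, and its wild-type response was not called with 12 arrays (adjusted p = 0.213). Seed storage had 0 measured genes. Over the lists as a whole, 92 of the 350 written genes were measured, and the others were not analysed here.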

How the data were processed

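Total RNA of whole seedlings was hybridised to AraGene-1.1-ST gene arrays (Affymetrix), with an array for each sample. Each deposited value is a log2 level from RMA, a method that removes background, brings the arrays to a common scale and combines the probes of a probe set. The use of RMA by the authors is taken from the submitters' notes on processing. Its version is not given in the sources used here. The values ran from 0.593 to 12.731 and were used as deposited, with no filter. The number of arrays limits the precision, and signal over background is unknown.

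Genes were named from the platform annotation, with symbols and loci from RefSeq: of the 38408 probe sets, 16746 had exactly 1 gene, 758 several and 20904 none here. Of the 16746, 1826 carried a symbol, 14920 a locus code only, and 145 matched no RefSeq locus. A gene with several probe sets is represented by the one with the highest mean.

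Groups came from the labels. limma (version 3.58.1, under R 4.3.3) fitted a mean for each group and moderated the spread by eBayes, with 8 residual degrees of freedom for 12 arrays and 7 for 11 (prior 3.92 and 4.62), and p-values were adjusted by Benjamini-Hochberg over the 16746 probe sets. The scripts were tested on simulated data. The p-values measure the spread between the samples of a group.

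The members, gene lists, named genes and array 1 as the array left out were chosen with earlier results of these data known. Named genes were the 10 highest and 10 lowest called interactions with a symbol and the 4 highest and 4 lowest without, the 6 lowest p-values of the 12-array fit, the 4 largest responses of each class with a symbol, genes called in amp1-13 with 12 arrays, and up to 3 genes per list. Other genes in the text, among them some of the 14 called with either set of DMSO arrays and most of the chloroplast genes, were chosen after their values were seen. AT5G20500 was taken out of the list of CC-type glutaredoxins after values had been seen, because it is not of that type. Alternatives covered the probe sets tested, a filter on dim ones, quantile normalization, an intensity trend, array weights, the replicate number as a block, the class limits, each array left out, and array 1 alone. No sequences are shown.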

Additional observations from a re-analysis of the deposited data

Results flagged for a closer look

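The interaction differed between the arrays used for DMSO-treated wild type: 464 probe sets were called without array 1 of that group, while 0 were called with all 12 arrays. Here 464 is the number of probe sets whose responses in amp1-13 and in wild type differed by limma's interaction test at an adjusted p of 0.05. With array 1 alone standing for DMSO-treated wild type the count was 245, and 14 probe sets were called with the same sign in both. Groups of 3 arrays were not searched for outlying values of single genes.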

How the results depend on the processing

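With 12 arrays, array weights gave 283 interaction calls, 98 amp1-13 and 2888 wild-type responses, and 2314 lost, 503 kept and 71 reversed genes. Array 1 alone in its group gave 245 interaction and 496 wild-type calls. The 3 amp1-13 calls became 10 over all probe sets of the table, 18 with the filter on dim probe sets and 30 with the intensity trend. Class limits of 0.7 left 32 kept and 0 reversed genes. Leaving out each array in turn gave 0 to 464 interaction, 3 to 130 amp1-13 and 22 to 2356 wild-type calls, and 16 to 1925 lost, 4 to 398 kept and 0 to 33 reversed genes.

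With 11 arrays, all probe sets of the table gave 69 amp1-13 and 4198 wild-type calls, and 3475 lost, 650 kept and 73 reversed genes. The amp1-13 calls were 282 with the filter on dim probe sets and 266 with the intensity trend. Class limits of 0.7 gave 166 kept and 11 reversed genes. Leaving out each further array gave 122 to 645 interaction, 28 to 120 amp1-13 and 1334 to 2516 wild-type calls, and 1148 to 2019 lost, 177 to 488 kept and 9 to 65 reversed genes. The 230 positive and 234 negative interactions were 164 and 271 over all probe sets, and 152 and 300 with the filter on dim probe sets.

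The replicate number as a block gave 307 interaction calls with 11 arrays, 290 of them among the 464, and 1 reversed gene with 12. Same-numbered samples of different groups deviated with correlations from -0.286 to 0.298, with 4 of 18 above 0.1, so the numbers were not taken to pair samples.

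With array 1 alone the interaction turned its sign relative to the 12-array fit for LBD29 (-0.33), ATPMEPCRD (-0.80), GH3.1 (-0.74), YUC2 (-0.0074), RALFL27 (-0.38), PRA1.G1 (-0.15), UGT71C1 (-0.14), EXPA7 (-0.31), FACT (-0.91), GSTU20 (1.04), EXO (0.078), AT5G36130 (-1.25), AT1G63600 (-1.03), MT1C (-0.11), EXLA1 (0.63), CLE44 (-0.77), CHLM (0.35), AT5G18600 (0.58), HEME1 (0.43), HEME2 (0.49), PAM68 (0.24), LIL3:1 (0.24) and AT5G19740 (-0.11). It turned with array weights for UGT72E2 (0.036) and AT4G15700 (-0.14). With each of the 12 arrays left out in turn, the interaction ran from -0.81 to 0.23 for UGT72E2, from -0.66 to 0.026 for EXLA1 and from -0.076 to 0.196 for AT4G15700. The cause was not tested. With 3 arrays a group, these data show neither which DMSO-treated wild-type arrays are typical nor small differences between genotypes.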

Other observations

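Of the 130 genes called in amp1-13 with 11 arrays, 117 had the same sign in wild type, against 59.2% of all probe sets. Of the 130, 82 were called there with the same sign, while 14.1% of all probe sets were called there in either direction. The other 13 had the opposite sign in wild type, and 22 of the 130 had a called interaction, against 2.77% of all probe sets. Of the 464 called interactions, 105 (22.6%) lay below the median of every array, against 47.2% of all probe sets. The 3 genes called in amp1-13 with 12 arrays had the same sign in wild type (57.6% of all probe sets), and 2 of them were called there too (1.82%).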
